A study of Mus musculus with 6 samples.

Results

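Heparin and chondroitin sulfate proteoglycans fill the granules of mast cells, and the transcripts of their synthesis were measured in mast cells with and without the microRNA miR-155. The genes comprised the granule core protein serglycin (Srgn), the heparan sulfate polymerase subunits Ext1 and Ext2, the heparan sulfate modifying enzymes Ndst1, Ndst2, Glce, Hs2st1 and Hs6st1, and the chondroitin sulfotransferases Chst11 and Chst15. They were chosen by name, and each was represented by the probe set with a single platform gene symbol and the highest mean over the 6 arrays. Of these 10 genes, 9 were measured among 19938 genes in all. Ndst1 was not analysed here. Each of the 9 had 1 such probe set.

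The cells were bone marrow derived mast cells of C57BL/6J mice, either wild type (WT) or carrying a deletion of miR-155 (miR-155 KO). Both groups had been cultured for 5 weeks with recombinant IL-3 at 0.5 ng/ml and SCF at 1 ng/ml, loaded overnight with anti-DNP IgE at 0.2 µg/ml, and exposed for 1 h to DNP-HSA, the matching antigen, at 20 ng/ml. For WT and for KO there were 3 independent cultures, each on 1 Affymetrix Mouse Gene 1.0 ST array. No unstimulated array was among the 6, so every difference below is one between stimulated cells. The labels give no age for the mice and name no promoter or cell type for the deletion.

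A proteoglycan is a core protein that carries sulfated sugar chains. Chains begin with a linkage sugar sequence on serine residues, and are then extended either as heparan sulfate, by the Ext1 and Ext2 polymerase, or as chondroitin sulfate. Heparin is a highly sulfated heparan sulfate made on serglycin in connective tissue mast cells, and its sulfation depends on Ndst2. Mast cells grown from bone marrow with IL-3 are known for carrying mainly chondroitin sulfate E, the form that Chst15 produces. The negatively charged chains hold granule proteases and amines in storage.

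The molecule missing from the KO cells is shown because its seed, bases 2 to 8 in capitals, is the stretch that pairs with target transcripts. The sequence is that of RefSeq, from the plus strand of chr16:84714143-84714165 in GRCm38.p6.
mmu-miR-155-5p: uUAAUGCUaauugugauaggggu

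The probe set of Mir155 checked neither the deletion nor the labels. It read 2.93, 2.88 and 3.17 in WT replicates 1 to 3 and 2.77, 2.91 and 2.90 in KO replicates 1 to 3 (log2 intensity), all below the median of all genes, 3.92. KO replicate 1 stood apart from the other arrays on the first principal component, at 32.0 against 5.36 and 7.31 for the other KO arrays and -19.5 to -10.6 for the WT arrays. Values of the proteoglycan genes are therefore also given without it. All 12 mast cell markers lay above the median of all genes. Of 11 macrophage and monocyte markers, 10 lay below it, and Csf1r, Adgre1 and Lyz2 had group means from 2.88 to 3.51. All 9 neutrophil markers, all 7 lymphocyte markers, 4 of 5 megakaryocyte and erythroid markers, 4 of 7 stromal markers and 1 of 4 basophil markers also lay below it. The summed macrophage signal was 8.98 to 9.26 in WT and 8.19 to 8.51 in KO arrays (log2), without overlap. Most of that sum came from Cx3cr1, which fell from 8.80 to 7.85 (adjusted p = 0.0280 by limma), a call that was lost without any of WT replicates 1 to 3 or KO replicates 1 and 3 (adjusted p from 0.0178 to 0.0911 over the fits lacking an array). Summed signals of the other lists overlapped between genotypes. Basophil markers spanned 8.58 to 9.20 in WT and 8.78 to 9.19 in KO, and stromal markers 6.59 to 6.75 and 6.67 to 6.74. Such sums can hide single genes. Of the 12 mast cell markers 0 had an adjusted p under 0.05 by limma. At an unadjusted p under 0.05, 2 were higher and 1 lower in KO, against 12.7% of all genes. Hdc (KO minus WT 0.84) and Mcpt4 (0.44) were above WT on every KO array, and Mitf (-0.29) overlapped. Whether these differences bear on the proteoglycan genes was not tested. In a bulk culture, fewer cells of a type and less RNA per cell cannot be told apart.

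None of the 9 proteoglycan genes passed the test between genotypes, and 6 of them showed no overlap between the 3 WT and the 3 KO arrays. Ndst2, Ext1 and Hs6st1 read lower on every KO array, with mean differences of 0.55 to 0.57 on the log2 scale. Srgn, Glce and Chst11 read higher on every KO array, by 0.21, 0.16 and 0.55. Ext2, Hs2st1 and Chst15 overlapped. Genes of heparan sulfate or heparin assembly were thus among the lower, the higher (Glce) and the overlapping genes (Ext2 and Hs2st1). Differences are miR-155 KO minus WT, and a gene passed where its Benjamini-Hochberg adjusted p in a limma fit over all 19938 genes was under 0.05. By this rule 0 of the 9 genes were called, against 0.823% of all genes (0.507% higher and 0.316% lower), and the lowest adjusted p among them was 0.0861 (Ext1). At an unadjusted p under 0.05 there were 5 of 9, 2 higher and 3 lower, against 12.7% of all genes (6.24% higher and 6.45% lower). Groups without overlap were seen in 17.2% of all genes, with KO above in 8.18% and KO below in 9.05%. The median difference was -0.20 over the 9 genes and -0.01 over all genes tested. The genes were picked with earlier results of these arrays known, so these counts are a description.

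**Figure D1:**
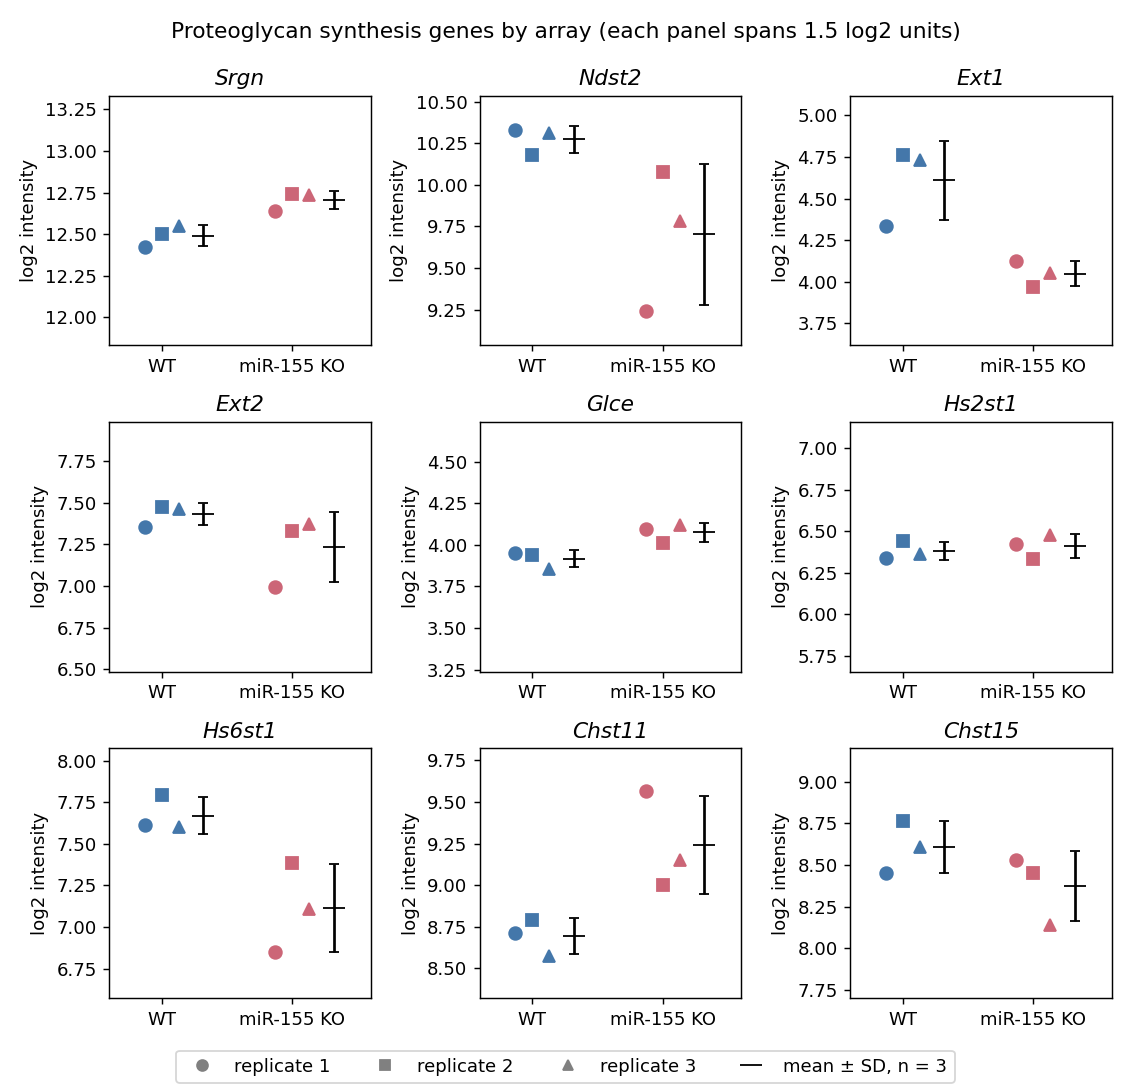
Log2 intensity (vertical axis, 1.5 log2 units in every panel) of the 9 proteoglycan genes in 3 WT and 3 miR-155 KO arrays; symbols mark the replicate number and black bars the mean ± SD (n = 3). Ndst2, Ext1 and Hs6st1 lie lower and Srgn, Glce and Chst11 higher on all 3 KO arrays, and KO replicate 1 lies farthest from WT for Ndst2, Ext2, Hs6st1 and Chst11.

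Serglycin is the core protein to which the granule glycosaminoglycans of mast cells are attached. Srgn read 12.42, 12.50 and 12.55 in WT replicates 1 to 3 and 12.64, 12.74 and 12.74 in KO replicates 1 to 3. Every KO array was above every WT array, with a narrow spread in both groups (SD 0.07 and 0.06, n = 3). The difference was 0.21 (SE 0.08, 95% interval 0.03 to 0.40), a ratio of 1.16, and it did not pass (adjusted p = 0.311, limma). KO replicate 1 was the lowest of the 3 KO arrays for this gene, and the difference was 0.25 without it.

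Ext1 and Ext2 encode the partner subunits that polymerize the heparan sulfate backbone. Ext1 read 4.34, 4.76 and 4.73 in WT and 4.12, 3.97 and 4.05 in KO replicates 1 to 3. The KO arrays lay together below the WT arrays, and WT replicate 1 was the lowest of the WT arrays. The difference was -0.56 (SE 0.12, 95% interval -0.84 to -0.28, adjusted p = 0.0861, limma). Both group means, 4.61 and 4.05, were close to the median of all genes. Ext2 read 7.35, 7.48 and 7.46 in WT and 6.99, 7.33 and 7.37 in KO. KO replicate 1 was well below the WT range, KO replicate 2 just below it and KO replicate 3 inside it. The difference of Ext2 was -0.20 (95% interval -0.46 to 0.06, adjusted p = 0.551, limma) with all arrays and -0.08 without KO replicate 1.

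Ndst2 removes acetyl groups from the chain and adds sulfate to the freed amines, the step on which mast cell heparin depends. It read 10.33, 10.18 and 10.31 in WT and 9.24, 10.08 and 9.78 in KO replicates 1 to 3. The WT arrays were close to each other, while the KO arrays spread widely, from 0.19 below the WT mean in replicate 2 to 1.03 below it in replicate 1 (SD 0.08 in WT and 0.42 in KO, n = 3). The difference was -0.57 (SE 0.19, 95% interval -0.99 to -0.15, adjusted p = 0.220, limma). It was -0.34 without KO replicate 1.

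Glce, the epimerase that turns glucuronic into iduronic acid within the chain, read 3.95, 3.94 and 3.86 in WT and 4.09, 4.01 and 4.12 in KO. The groups did not overlap, and both were at or near the median of all genes. The difference was 0.16 (95% interval -0.03 to 0.34, adjusted p = 0.485, limma). Hs2st1, which sulfates the uronic acid, read 6.34, 6.44 and 6.36 in WT and 6.42, 6.33 and 6.48 in KO. These arrays were interleaved. The difference was 0.03 with a 95% interval of -0.16 to 0.22, which leaves room for ratios of KO to WT from 0.897 to 1.17.

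Hs6st1, which sulfates the glucosamine residues, read 7.61, 7.80 and 7.60 in WT and 6.85, 7.38 and 7.11 in KO. All KO arrays were below all WT arrays, with KO replicate 1 lowest. The difference was -0.55 (SE 0.14, 95% interval -0.86 to -0.25), equal to 1.47-fold lower in KO (adjusted p = 0.109, limma), and it was -0.42 without KO replicate 1. Over 13 alternative settings the adjusted p of Hs6st1 by limma ran from 0.0541, without KO replicate 2, to 0.273, over every probe set.

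The chondroitin sulfotransferases differed in sign. Chst11, which sulfates N-acetylgalactosamine in chondroitin, read 8.71, 8.79 and 8.58 in WT and 9.57, 9.001 and 9.15 in KO replicates 1 to 3. Every KO array was above every WT array, KO replicate 1 by the most. The difference was 0.55 (SE 0.14, 95% interval 0.22 to 0.87), a ratio of 1.46 (adjusted p = 0.133, limma), and 0.38 without KO replicate 1. Chst15, which adds the further sulfate of chondroitin sulfate E, read 8.45, 8.76 and 8.61 in WT and 8.53, 8.45 and 8.14 in KO. The groups overlapped, and KO replicate 3 was the lowest array. The difference was -0.23 (95% interval -0.52 to 0.05, adjusted p = 0.514, limma), and -0.31 without KO replicate 1. It was -0.12 without KO replicate 3 and -0.16 without WT replicate 2.

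**Figure D2:**
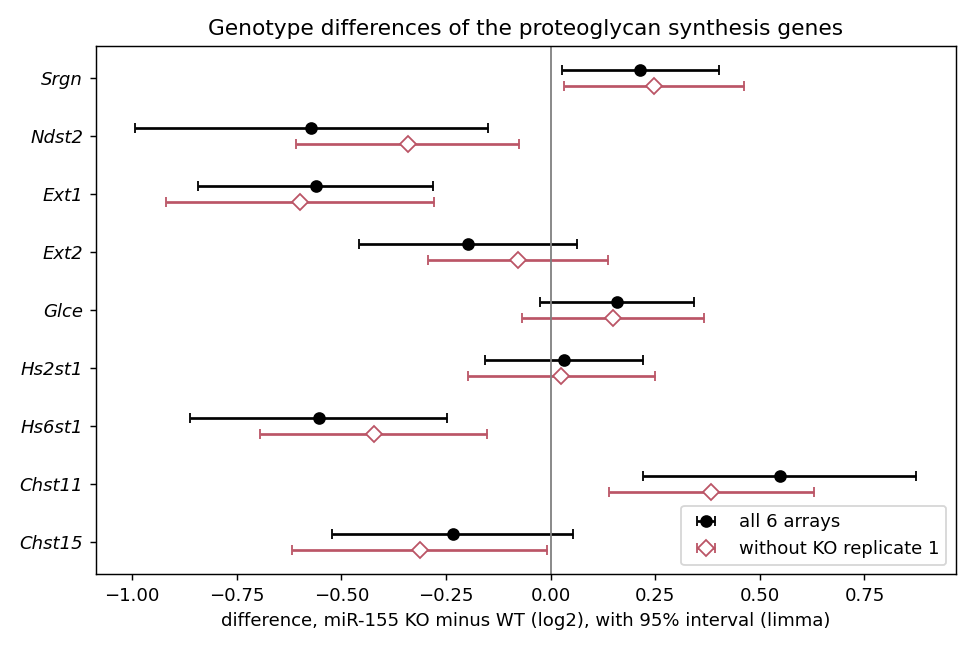
Difference between miR-155 KO and WT (log2, horizontal axis) with its 95% interval from limma for the 9 genes, over all 6 arrays (filled circles) and without KO replicate 1 (open diamonds). Ndst2 moves from -0.57 to -0.34, Ext2 from -0.20 to -0.08 and Chst11 from 0.55 to 0.38 when that array is left out, while Ext1 goes from -0.56 to -0.60 and Srgn from 0.21 to 0.25.

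KO replicate 1 was the KO array farthest from the WT mean for 4 of the 9 genes (Ndst2, Ext2, Hs6st1 and Chst11), KO replicate 2 for 2 (Srgn and Ext1) and KO replicate 3 for 3 (Glce, Hs2st1 and Chst15). Over all genes the shares were 45.5%, 25.5% and 29.1%. Leaving out KO replicate 1 changed the sign of none of the 9 differences. For the 6 genes without overlap over all arrays this was fixed in advance, since dropping an array cannot make separate groups overlap. Of the rest, Ext2 and Hs2st1 still overlapped. The arrays of Chst15 no longer did, KO below, but the groups almost touched. KO replicate 2 was at 8.452 and WT replicate 1 at 8.454, and fewer arrays overlap less easily.

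Ratios within an array show whether genes of one class differed unequally, free of any constant shift of the array. Their level has no meaning of its own, since probe sets differ in brightness, so only the shift between genotypes is read. In all, 3 pairs of genes were compared, Ext1 with Ext2, Hs2st1 with Hs6st1 and Chst11 with Chst15. Chst11 minus Chst15 was 0.26, 0.03 and -0.03 in WT and 1.04, 0.55 and 1.02 in KO replicates 1 to 3. Hs2st1 minus Hs6st1 was -1.27, -1.36 and -1.24 in WT and -0.43, -1.05 and -0.63 in KO. Neither pair overlapped between genotypes. The shifts were 0.78 for Chst11 against Chst15 and 0.59 for Hs2st1 against Hs6st1, each with an exact two-sided permutation p of 0.1, the smallest that 3 against 3 arrays can give (adjusted p = 0.15 over the 3 pairs, exact test). Ext1 minus Ext2 was -3.02, -2.71 and -2.73 in WT and -2.87, -3.36 and -3.32 in KO, where KO replicate 1 lay inside the WT range. Its shift was -0.36 (exact permutation p = 0.2, adjusted 0.2).

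**Figure D3:**
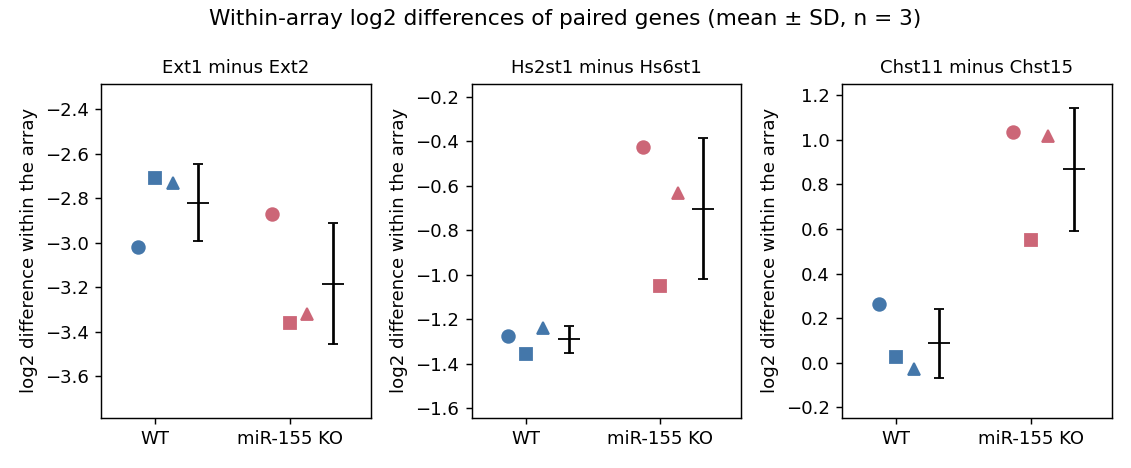
Log2 difference within each array (vertical axis, 1.5 log2 units in every panel) for 3 pairs of genes in 3 WT and 3 miR-155 KO arrays, with symbols for the replicate number as in the plot by array and black bars for the mean ± SD (n = 3). Chst11 minus Chst15 and Hs2st1 minus Hs6st1 are higher on all 3 KO arrays; Ext1 minus Ext2 overlaps because KO replicate 1 is at -2.87.

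Across the wider pathway, 1 of 92 measured genes rose, 1 fell and 90 did not pass, against 0.507% higher and 0.316% lower over all genes. The median difference was -0.01, against -0.01 over all genes tested. These 92 include the 9 genes above. The gene that rose was Hs3st1, a heparan sulfate sulfotransferase known for making the antithrombin binding site. It read 6.95, 7.11 and 7.16 in WT and 7.83, 7.63 and 7.60 in KO, every KO array above WT (1.53-fold, SE 0.10 on the log2 scale, adjusted p = 0.0363, limma). The gene that fell was Naglu, a lysosomal glucosaminidase that degrades heparan sulfate. It read 8.14, 7.98 and 8.05 in WT and 7.24, 7.49 and 7.48 in KO, and fell by 0.65 (SE 0.10, adjusted p = 0.0280, limma). Both calls were lost under a replicate block (adjusted p = 0.0689 for Hs3st1 and 0.0546 for Naglu, limma), over every probe set (0.159 and 0.141) and when single arrays were left out. Whichever of the 6 arrays was omitted, Hs3st1 no longer passed, with adjusted p between 0.0631 and 0.134. Naglu passed when KO replicate 2 was omitted (adjusted p = 0.0472) and not when any other array was (up to 0.116).

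The linkage region list held 7 measured genes, of which 0 passed by limma. At an unadjusted p under 0.05 there were 2, Xylt1 and Xylt2, the xylosyltransferases that start every chain. Over all genes 12.7% were under this threshold, 6.24% higher and 6.45% lower. The counts by step, here and below, are to be read beside these shares. Xylt1 differed by -0.58 (adjusted p = 0.126) and Xylt2 by -0.25 (adjusted p = 0.214), both below WT on all KO arrays. B3galt6, a linkage galactosyltransferase, differed by 0.21 with overlap, by 0.05 without WT replicate 1, 0.33 without WT replicate 2 and 0.07 without KO replicate 3. Of 5 heparan sulfate polymerization genes 0 passed by limma, with 2 lower at an unadjusted p under 0.05, Ext1 and Extl2. Extl2 differed by -0.30, Extl1 by -0.14 and Extl3 by 0.13, all with overlapping arrays. Extl2 was at -0.19 without KO replicate 1 and Extl1 at -0.01 without WT replicate 3. Extl3 was at 0.19 without WT replicate 1, 0.05 without WT replicate 2 and 0.08 without KO replicate 3.

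Of 17 genes of heparan sulfate and heparin modification, Hs3st1 was the 1 that passed, and the median difference was -0.04. The isoenzymes of the genes above, picked after their values were seen, did not all read in the same direction. Hs6st2 read 8.96, 9.10 and 9.21 in WT and 8.47, 8.72 and 8.90 in KO, below WT like Hs6st1 (difference -0.39, adjusted p = 0.204, limma). Ndst3 read 5.06, 4.91 and 5.12 in WT and 5.55, 5.15 and 5.54 in KO, above WT and opposite in sign to Ndst2 (difference 0.38, adjusted p = 0.223, limma). The arrays of Hs6st3 and Ndst4 overlapped between genotypes. None of these 4 isoenzymes passed by limma.

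Of 6 genes of chondroitin polymerization 0 passed by limma, with 1 higher and 1 lower at an unadjusted p under 0.05. Chpf2, a chondroitin polymerizing factor, differed by 0.37 with every KO array above WT (adjusted p = 0.113), its relative Chpf by 0.19 (0.12 without WT replicate 3), and Csgalnact2, which begins the chondroitin chain, by -0.23. Of 10 genes of chondroitin and dermatan modification 0 passed by limma, with 1 higher (Chst11) and 2 lower at an unadjusted p under 0.05. The latter were Chst14, the dermatan sulfotransferase, at -0.32 and Chst12, a chondroitin sulfotransferase, at -0.35. Dse, the dermatan epimerase, differed by 0.15 with overlap.

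Of 13 genes that supply sugar nucleotides and active sulfate 0 passed by limma, with 1 higher and 1 lower at an unadjusted p under 0.05. Slc35b3, a Golgi transporter of active sulfate, differed by 0.25 without overlap (adjusted p = 0.223), Papss1, which synthesizes active sulfate, by -0.31 and Slc35d1, a sugar nucleotide transporter, by -0.23. Of 19 core protein genes 0 passed by limma, with 2 higher at an unadjusted p under 0.05, Srgn and Vcan. A positive difference was seen in 15 of the 19, against 9566 of all 19938 genes. The median difference of the 19 was 0.04. Most of them lay below the median level of all genes, 3.92, and some positive values were very small, such as 0.0005 for Bgn and 0.008 for Gpc4. Vcan, the large chondroitin sulfate proteoglycan versican, read 5.25, 5.26 and 4.82 in WT and 6.28, 5.34 and 5.99 in KO. All KO arrays were above WT, with KO replicate 2 close to it. The difference was 0.76 (SE 0.23, adjusted p = 0.178, limma), and Vcan passed without KO replicate 2 (difference 1.03, adjusted p = 0.0437, limma). Without KO replicate 1 its difference was 0.56 (adjusted p = 0.383, limma). The cell surface core proteins Sdc3 and Gpc1 differed by 0.24 and 0.22 with overlap. Sdc3 was at 0.11 without KO replicate 3 and 0.13 without WT replicate 3. Gpc1 was at 0.33 without WT replicate 1, 0.05 without WT replicate 3 and 0.14 without KO replicate 2.

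Among 15 genes of glycosaminoglycan breakdown 11 had a negative difference, against 10372 of all 19938 genes, with a median of -0.07. Besides Naglu, 3 more were lower at an unadjusted p under 0.05 without passing, Glb1, Ids and Sgsh. Glb1 differed by -0.40 with overlapping arrays (adjusted p = 0.309, limma). Ids, the lysosomal iduronate sulfatase, read 7.84, 8.09 and 7.93 in WT and 7.29, 7.59 and 7.46 in KO, all KO arrays below WT (difference -0.50, adjusted p = 0.0807, limma). Sgsh, the lysosomal sulfamidase that removes the sulfate added by the Ndst enzymes, read 6.04, 6.09 and 6.28 in WT and 4.87, 5.62 and 5.69 in KO (difference -0.74, adjusted p = 0.143, limma). It too was lowest on KO replicate 1, without which the difference was -0.48. Ids and Sgsh were picked after their values were seen.

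**Figure D4:**
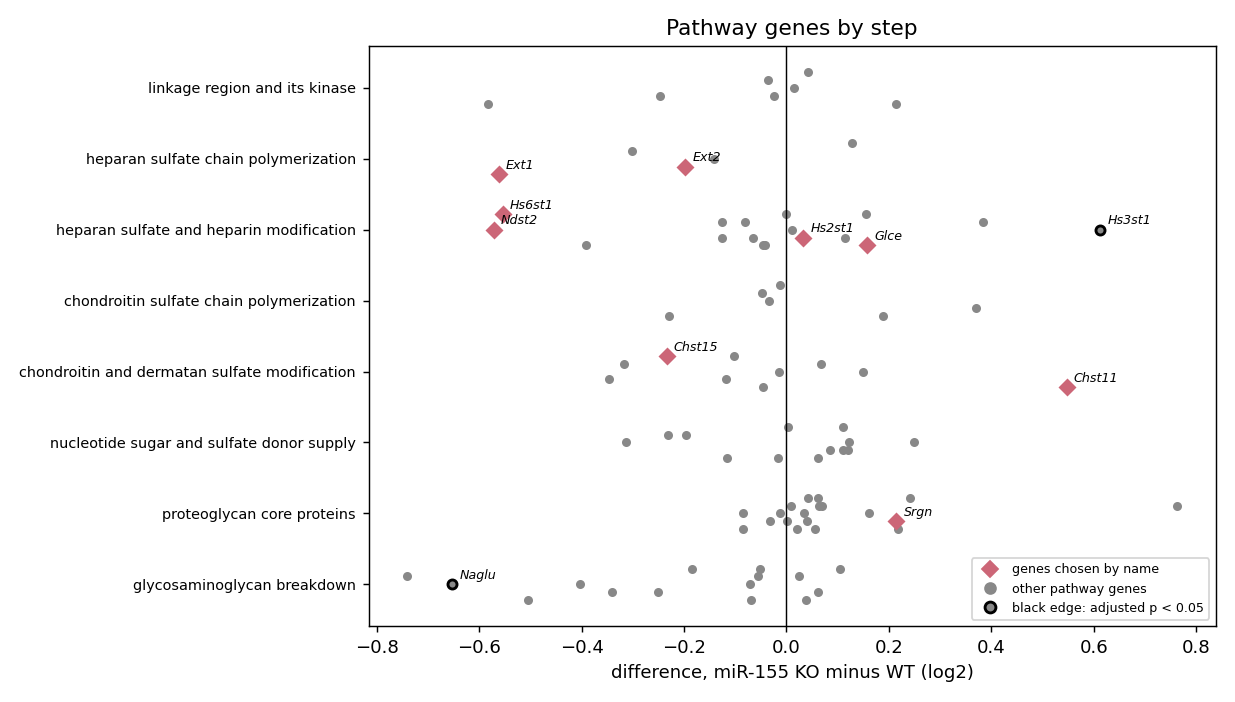
Difference between miR-155 KO and WT (log2, horizontal axis) of the 92 measured pathway genes, 1 symbol per gene, arranged by step of synthesis or breakdown; diamonds are the 9 genes chosen by name and black edges mark an adjusted p under 0.05 (limma). Hs3st1 at 0.61 and Naglu at -0.65 are the genes with black edges, and the vertical position within a row carries no meaning.

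The start regions of some genes that stood apart in opposite directions are shown so that their sequence can be read beside the values. Of the other genes without overlap, Glce is not printed and Ext1 had no window. Srgn and Chst11 read higher and Ndst2 and Hs6st1 lower on all KO arrays. The windows hold the 250 bases before an annotated start, 5′ to 3′ on the gene's strand, from RefSeq in GRCm38.p6, and Srgn has 2 annotated starts. Capitals mark matches on either strand to the GC box GGGCGG. Also searched were GATAA, the core of GATA factor sites, the E boxes CATGTG and CACGTG, known for MITF, and the AP-1 site TGANTCA, with 0 matches in these 5 windows.
Srgn, chr10:62527446-62527695, minus strand: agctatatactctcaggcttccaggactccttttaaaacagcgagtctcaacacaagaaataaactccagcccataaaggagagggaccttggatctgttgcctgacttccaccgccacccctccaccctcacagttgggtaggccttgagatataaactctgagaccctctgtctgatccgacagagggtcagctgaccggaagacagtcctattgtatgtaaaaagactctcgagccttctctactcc
Srgn, chr10:62507758-62508007, minus strand: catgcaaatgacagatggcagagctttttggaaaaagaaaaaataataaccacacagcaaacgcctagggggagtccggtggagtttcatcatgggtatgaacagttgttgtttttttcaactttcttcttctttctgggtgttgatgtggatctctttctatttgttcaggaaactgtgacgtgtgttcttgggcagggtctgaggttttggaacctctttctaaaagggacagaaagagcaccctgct
Chst11, chr10:82985247-82985496, plus strand: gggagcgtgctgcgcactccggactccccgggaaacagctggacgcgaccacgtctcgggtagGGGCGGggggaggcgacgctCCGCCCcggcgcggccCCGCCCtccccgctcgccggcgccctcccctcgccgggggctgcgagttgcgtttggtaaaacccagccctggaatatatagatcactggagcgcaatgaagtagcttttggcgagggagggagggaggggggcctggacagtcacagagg
Ndst2, chr14:20734563-20734812, minus strand: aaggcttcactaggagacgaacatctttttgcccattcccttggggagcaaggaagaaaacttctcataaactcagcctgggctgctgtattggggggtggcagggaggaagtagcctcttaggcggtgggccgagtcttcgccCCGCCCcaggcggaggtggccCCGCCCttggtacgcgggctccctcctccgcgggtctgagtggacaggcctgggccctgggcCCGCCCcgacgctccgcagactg
Hs6st1, chr1:36068150-36068399, plus strand: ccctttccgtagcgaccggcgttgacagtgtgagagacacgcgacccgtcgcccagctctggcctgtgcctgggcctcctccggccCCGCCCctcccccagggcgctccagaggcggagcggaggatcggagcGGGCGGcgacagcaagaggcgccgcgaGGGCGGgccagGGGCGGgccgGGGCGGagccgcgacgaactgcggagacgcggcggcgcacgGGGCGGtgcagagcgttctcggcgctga

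The share of G and C was 49.6% and 42.8% in the Srgn windows, below the median of 52.4% over 32851 windows of this length, and 70% in Chst11, 64.8% in Ndst2 and 76.4% in Hs6st1. Among the windows not printed it was 67.2% in Glce, 64.4% in Hs2st1, 62.8% and 54.8% in Chst15 and 54.8% in Ext2. GGGCGG had 0 matches in either Srgn window and in that of Ext2, 3 in Chst11, 3 in Ndst2 and 6 in Hs6st1. It had 3 in Glce, 1 in Hs2st1 and 1 in each Chst15 window. It was found in 32.7% of all windows and in 7 of the 10 windows of the 8 genes with a window, of which the Chst15 windows overlap each other. GATAA was found in 22.6% of all windows and in 1 of the 10, and CACGTG in 6.02% and in 1 of the 10, both in that of Ext2. CATGTG (12.3% of all windows) and TGANTCA (6.75%) had 0 matches in the 10. CATGTG and CACGTG are both forms of CANNTG and cannot match at the same position. Genes that read higher and genes that read lower in KO both had windows with GC boxes. A match or its lack describes these letters only.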

How the data were processed

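RNA of 6 cultures was measured on 1 array each, in 2 groups of 3 taken from the sample titles. The deposited values are log2 intensities that the authors made with RMA, per the submitters' processing notes; no version of RMA and no build of the annotation is stated in the sources used here. This method subtracts background, normalizes between arrays and summarises probes, and levels of different probe sets are not comparable. Of 35557 probe sets, 21789 had 1 symbol in the platform annotation, which gave 19938 genes at 1 probe set each, the brightest. The fit used lmFit and eBayes of limma 3.58.1 under R 4.3.3 (genotype the only term, 4 residual and 4.68 prior degrees of freedom), with two-sided Benjamini-Hochberg adjusted p over all genes, and the code was tested on simulated data. Intervals are moderated 95% intervals, and 3 arrays per group limit the precision. The alternatives were a replicate block, median centring, a repeat of quantile normalization, genes above the median level alone, trend and robust priors, every probe set, averaged probe sets and the omission of each array. Same-numbered arrays showed no steady tendency to deviate together (r = -0.01, -0.06 and 0.24 across genes for replicates 1 to 3). Differently numbered arrays ran from r = -0.25 to 0.24. Deviations from a mean of 3 arrays constrain each other, so these values cannot exclude pairing. The main fit did not take the numbers as pairs, and the replicate block was kept as an alternative. Beyond the genes chosen by name, each pathway list gave the genes called or else its 3 lowest p. Exceptions included Hs6st2, Hs6st3, Ndst3, Ndst4, Ids, Sgsh and Glb1, which were added after their values were seen. The genes and lists were chosen with earlier results of these data known. Ndst1 and its planned ratio to Ndst2 were not analysed here. Plots used matplotlib 3.10.9.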

Additional observations from a re-analysis of the deposited data

How the results depend on the processing

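The count of proteoglycan genes called was 0 of 9 in all 13 alternatives. Of 117 single differences of these genes over the alternatives, 116 kept their sign and their side of the threshold. The exception was Hs2st1 without KO replicate 3, at -0.000698, in a range up to 0.0716 over the fits lacking an array. Many of these signs could not change. The replicate block, the genes above the median level, the priors, every probe set and averaged probe sets left each difference as it was. They could alter only its SE and adjusted p. Omitting an array cannot turn the sign of a gene without overlap. Over all genes the count was 164, 4 when every probe set was tested, and from 15 to 167 without 1 array. The count of pathway genes was 2, with 0 under the replicate block and 0 over every probe set, and from 0 to 2 without 1 array; the 2 without KO replicate 2 were Naglu and Vcan. Under the replicate block the adjusted p was 0.0689 for Hs3st1 and 0.0546 for Naglu, and the count over all genes was 199. Within-array ratios kept their sign in every alternative run, which the omission of an array could not change for the pairs without overlap. Median centring cancels within an array, and averaging leaves genes with 1 probe set as they were, so neither could change a ratio. The 3 arrays per group limit the precision, and the widest of the 9 intervals, that of Ndst2, ran from -0.99 to -0.15.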
